A study of Mus musculus with 16 samples.

Results

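The complement and coagulation genes of gonadal fat were followed from the fed to the fasted state in mice. The set held 35 named genes, of which 31 were measured by a probe set annotated to a single gene symbol, out of 22180 genes measured that way. Where a gene had several such probe sets, which among the 31 was so for C1s1 only, the one with the highest mean across the 16 arrays was used. C3, Cfd, Serpine2 and Masp2 had no such probe set in the annotation used here and were not analysed here. The samples were 8 gonadal white fat pads from male C57BL/6 mice with food freely available and 8 from male C57BL/6 mice whose food was withdrawn for 16 h. All mice were 3 to 4 months old, tissue was taken in the morning, and the labels name no transgene or other treatment in either group. The question was which transcripts of this depot change when food is withdrawn. The value of a gene is its array signal on a log2 scale after robust multi-array averaging (RMA), so that a difference of 1 is a doubling, and levels of different genes were not set against each other.

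Complement is a cascade of plasma and membrane proteins that tags particles for uptake, releases the small peptides C3a and C5a that attract and activate leukocytes, and can end in a pore in a target membrane. Coagulation is a parallel cascade of serine proteases that converts fibrinogen to fibrin, with tissue factor as its trigger, and the thrombomodulin, protein C and protein S pathway as one of its brakes. The liver makes most of the circulating components, while macrophages, endothelial cells, fibroblasts and adipocytes make some of them within a tissue. Albumin mRNA (Alb), which is made in hepatocytes, was therefore followed in every array beside the set.

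Genes were called changed in limma when the p adjusted by Benjamini-Hochberg across all 22180 genes was under 0.05. Of the 31 genes, 5 rose in the fasted samples (C1qb, C3ar1, C5ar1, Pros1 and Plaur), 2 fell (Thbd and Cd59a) and 24 were not called. The rises made up 16.1% of the set, beside 8.49% of all genes called higher, and the falls 6.45%, beside 10.7% of all genes called lower. The median log2 fold change, fasted minus fed, was 0.08 over the set and -0.0042 over all genes, and 18 of the 31 lay above 0. Of all calls 44.3% were higher in the fasted samples, or 54.7% after each array's median was subtracted, which moved the median of all genes by 0.040. The samples are whole fat pads, so fewer cells of a type and less RNA per cell cannot be told apart. Whether the 16 samples are 16 mice is not stated in the labels, so the tests speak only of the variation among these samples, which may be technical.

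**Figure D1:**
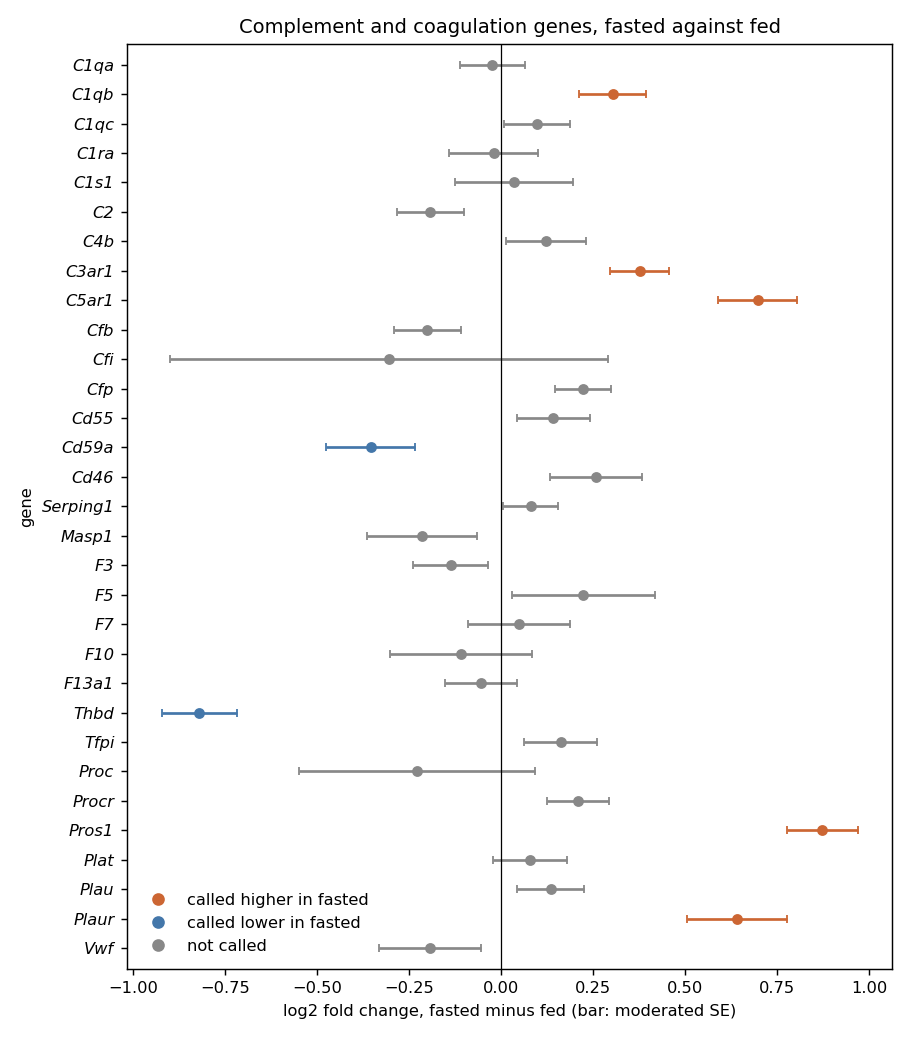
Log2 fold change of the 31 measured genes, fasted minus fed, with the moderated standard error of each as a bar (8 arrays per group). Pros1 at 0.87 and Thbd at -0.82 lie farthest from 0, and the widest bar, of 0.60, belongs to Cfi.

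All 10 adipocyte markers were measured, of which 3 rose, 2 fell and 5 were not called. Their mean log2 value lay between 10.2 and 10.5 in the fed arrays and between 10.1 and 10.4 in the fasted arrays. No array was a copy of another, and the arrays correlated with each other over all genes at r between 0.966 and 0.993. The comparisons use all 16 arrays. Fed replicate 2 and fasted replicate 7 stood apart by transcripts of ciliated epithelium and epididymis, and fed replicate 3 had the highest mean of the hepatocyte markers. The epididymis list mean was low even in fed replicate 2 and fasted replicate 7, at 3.00 and 2.86, below the lowest array median over all probe sets, 3.60.

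Promoter sequence is shown for 6 genes that carry the comparisons below: C1qb and C1qc, neighbouring subunits of 1 protein of which only the first was called, the receptor genes C3ar1 and C5ar1, which rose together, Pros1, the largest rise, and F10, which followed Alb. Each is the 250 bases before the start listed by RefSeq (GRCm38.p6), printed 5′ to 3′ on the gene's strand, and the capitals mark the motifs that were searched for on both strands. The windows are chr4:136886201-136886450 (minus strand) for C1qb, chr4:136892915-136893164 (minus) for C1qc, chr6:122856158-122856407 (minus) for C3ar1, chr7:16259339-16259588 (minus) for C5ar1, chr16:62854057-62854306 (plus) for Pros1 and chr8:13037058-13037307 (plus) for F10. For C1qc and C5ar1 part of the window lies inside the span that RefSeq gives the gene.
C1qb: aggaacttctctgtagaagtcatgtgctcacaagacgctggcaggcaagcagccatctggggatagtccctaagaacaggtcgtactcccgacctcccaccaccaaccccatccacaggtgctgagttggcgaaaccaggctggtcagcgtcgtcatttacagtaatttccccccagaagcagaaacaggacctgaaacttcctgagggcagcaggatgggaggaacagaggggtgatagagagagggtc
C1qc: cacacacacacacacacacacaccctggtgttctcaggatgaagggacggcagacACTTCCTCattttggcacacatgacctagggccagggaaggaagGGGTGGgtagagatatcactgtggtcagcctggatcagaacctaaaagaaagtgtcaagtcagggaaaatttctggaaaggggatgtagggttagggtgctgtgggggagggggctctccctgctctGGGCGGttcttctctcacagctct
C3ar1: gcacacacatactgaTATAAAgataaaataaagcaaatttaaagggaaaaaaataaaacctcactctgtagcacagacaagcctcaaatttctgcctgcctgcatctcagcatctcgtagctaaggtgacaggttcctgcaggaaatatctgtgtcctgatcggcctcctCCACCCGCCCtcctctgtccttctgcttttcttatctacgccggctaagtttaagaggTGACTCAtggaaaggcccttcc
C5ar1: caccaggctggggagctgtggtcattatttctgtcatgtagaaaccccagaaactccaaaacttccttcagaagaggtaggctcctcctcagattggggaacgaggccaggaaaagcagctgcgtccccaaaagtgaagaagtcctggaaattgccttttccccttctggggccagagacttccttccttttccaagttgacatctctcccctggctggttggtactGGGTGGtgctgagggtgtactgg
Pros1: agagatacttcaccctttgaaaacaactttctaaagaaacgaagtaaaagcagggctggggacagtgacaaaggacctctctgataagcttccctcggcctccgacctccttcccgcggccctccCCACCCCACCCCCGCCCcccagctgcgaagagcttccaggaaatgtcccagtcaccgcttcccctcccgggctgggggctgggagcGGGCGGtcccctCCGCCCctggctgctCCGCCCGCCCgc
F10: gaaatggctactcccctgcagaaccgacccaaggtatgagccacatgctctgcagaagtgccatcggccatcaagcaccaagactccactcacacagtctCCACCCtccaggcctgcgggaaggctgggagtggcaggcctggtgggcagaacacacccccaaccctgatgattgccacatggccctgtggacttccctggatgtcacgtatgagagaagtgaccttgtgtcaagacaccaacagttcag
The motifs searched were the E-box (CACGTG), the AP-1 site (TGANTCA), a FOXO site (TGTTTAC), a PU.1 site (GAGGAAGT), the GC box (GGGCGG), a C/EBP site (TTGCNNAA), the TATA box (TATAAA) and the CACCC box (CCACCC). Of the 35 genes 23 had a promoter in the table, and 4 of these held the AP-1 letters (C3ar1, F3, Procr and Plaur), against 6.75% of the 32851 promoters of all genes. The C3ar1 match, TGACTCA, ended 16 bases before the start. The PU.1 letters were in 1 of the 23, C1qc, against 2.44% of all promoters, and the C/EBP letters in 4, against 9.56%. The GC box was in 9 of the 23, against 32.7% of all promoters, and the CACCC box in 12, against 28.1%. In Pros1, 5 GC boxes and 2 CACCC boxes were found; matches of these motifs overlap each other there and in C3ar1. The TATA letters were in 2 of the 23, against 12.4% of all promoters, and the E-box and FOXO letters in 0, against 6.02% and 3.17%. A match describes letters in this window only, and C1qb had none of the 8.

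C1q, the protein that binds antibody on a target and starts the classical pathway, is built from the products of C1qa, C1qb and C1qc, which lie beside one another on chromosome 4 (GRCm38.p6). C1qb had a lowest, median and highest log2 value of 9.69, 9.92 and 10.18 in the fed arrays and 9.97, 10.19 and 10.60 in the fasted arrays. The groups overlapped, with fasted replicate 2 lowest and fasted replicate 1 highest of the fasted arrays. The mean rose from 9.94 ± 0.16 (SD, n = 8) to 10.24 ± 0.20 (n = 8), a log2 fold change of 0.30 (SE 0.091, limma adjusted p = 0.0234). C1qa ran from 8.50 over 8.75 to 8.99 in the fed arrays and from 8.54 over 8.70 to 9.14 in the fasted arrays, with a log2 fold change of -0.02 (limma adjusted p = 0.909). C1qc ran from 7.02 over 7.21 to 7.54 and from 7.15 over 7.32 to 7.66, with a log2 fold change of 0.10 (limma adjusted p = 0.551). Both overlapped over most of their range. Within arrays, the change of C1qb exceeded that of C1qa by 0.33 (SE 0.062) and that of C1qc by 0.21 (SE 0.045) on the log2 scale, differences that were picked after the values were seen and are given without a test. The C1qb call was lost without fasted replicate 6 (log2 fold change 0.27, limma adjusted p = 0.0506) and without fed replicates 2 and 3 and fasted replicate 7 together (0.24, adjusted p = 0.119).

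C3ar1 and C5ar1 encode the receptors of the peptides C3a and C5a on leukocytes. C3ar1 ran from 7.62 over a median of 7.67 to 7.99 in the fed arrays and from 7.98 over 8.05 to 8.48 in the fasted arrays. The groups met only at their edges, where the highest fed array (replicate 8) lay just above the lowest fasted array (replicate 5). The mean rose from 7.74 ± 0.13 to 8.12 ± 0.17 (SD, n = 8 each), a log2 fold change of 0.38 (SE 0.080, limma adjusted p = 0.00209). C5ar1 ran from 4.85 over 4.97 to 5.40 in the fed arrays and from 5.36 over 5.80 to 6.05 in the fasted arrays. Again a single fed array, replicate 1, reached above the lowest fasted array, replicate 5. The mean rose from 5.05 ± 0.19 to 5.75 ± 0.25 (SD, n = 8 each), a log2 fold change of 0.70 (SE 0.11, limma adjusted p = 1.02e-04), or 1.62-fold. The change of C5ar1 exceeded that of C3ar1 by 0.32 (SE 0.11), also picked after the values were seen.

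Macrophages make C1q and carry both receptors. Of 14 macrophage markers, all measured, 3 rose (Cd68, Cd163 and Cd14) and 2 fell (Mrc1 and Aif1), and the mean of the list ran from 7.76 to 7.95 in the fed arrays and from 7.71 to 8.27 in the fasted arrays. None of the 7 neutrophil markers was called. Their list mean was 2.88 to 3.31 in the fed arrays and 2.87 to 3.40 in the fasted arrays. Both ranges lay below the lowest array median over all probe sets, 3.60, so the lack of calls says little about neutrophils. Fasted replicate 1 had the highest mean of the macrophage markers and the highest fasted value of 12 of the 31 genes. These were C1qa, C1qb, C1qc, C1s1, C3ar1, C5ar1, Cfp, Serping1, Masp1, F5, F13a1 and Thbd. Among the fasted arrays it also had the highest mean of the mesothelial markers (7.63) and of the fibroblast and preadipocyte markers (9.66). Its mean of the adipocyte markers, 10.12, was the lowest of the fasted arrays. Without fasted replicate 1, the log2 fold changes were 0.25 for C1qb (limma adjusted p = 0.0420), 0.33 for C3ar1 (0.00266) and 0.65 for C5ar1 (2.39e-04). The part of these marker lists in these results was not tested.

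**Figure D2:**
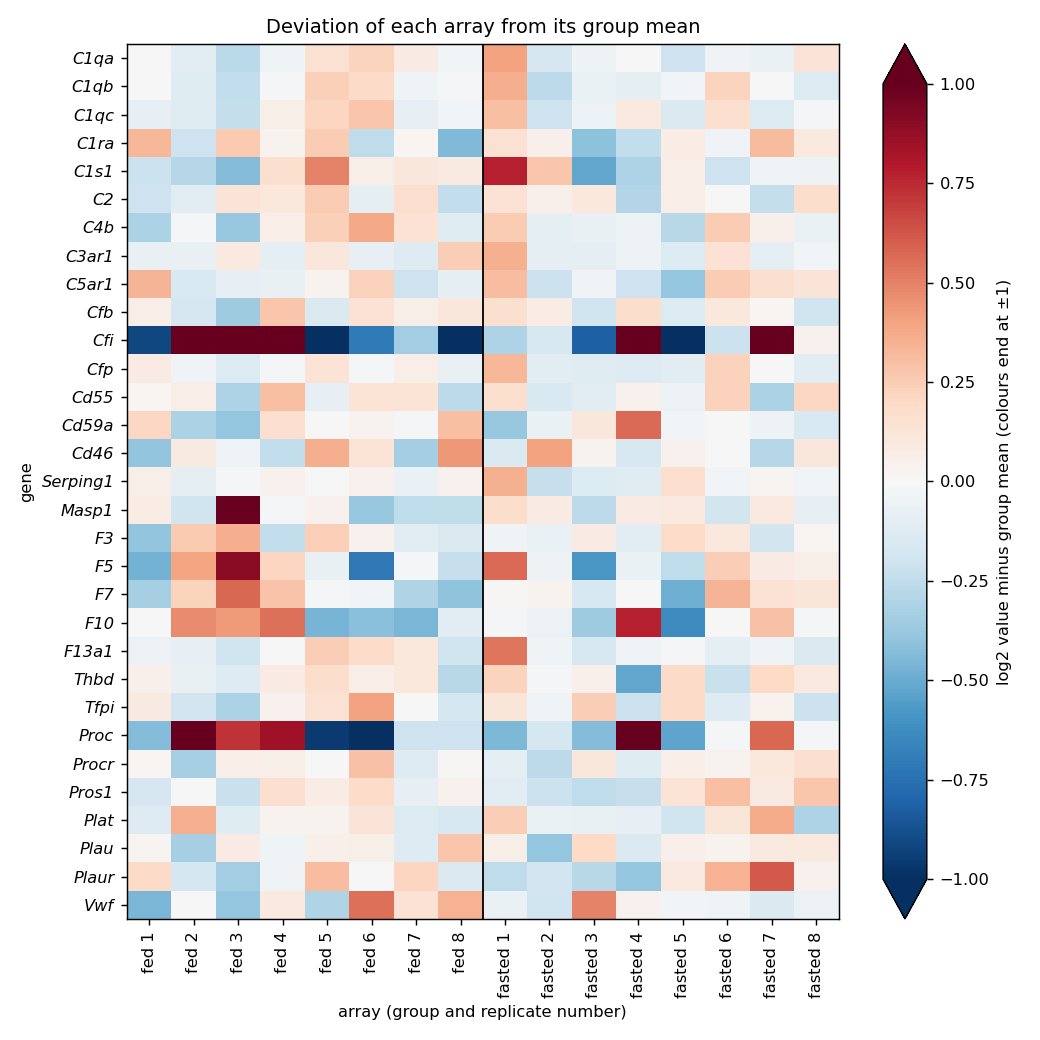
Log2 value of each of the 31 genes in each array minus the mean of its group, with fed arrays on the left and fasted arrays on the right and colours ending at 1 in either direction. Fasted replicate 1 is high for C1qa, C1qb, C1qc, C3ar1, C5ar1 and F13a1, and the rows of Cfi and Proc are high in fed replicates 2, 3 and 4 and in fasted replicates 4 and 7.

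The enzymes of the early complement cascade were not called. C1ra and C1s1, the proteases carried by C1q, had log2 fold changes of -0.02 (SE 0.12) and 0.03 (SE 0.16), and their sign turned under other settings. C1s1 ranged from 5.60 to 6.53 in the fed arrays and from 5.55 to 6.85 in the fasted arrays, and its other probe set gave -0.06. C2, the protease of the classical convertase, ran from 8.73 over 8.98 to 9.23 in the fed arrays and from 8.48 over 8.84 to 8.95 in the fasted arrays (-0.19, SE 0.091, limma adjusted p = 0.170). Cfb, its counterpart in the alternative pathway, ran from 8.83 over 9.25 to 9.46 and from 8.78 over 9.03 to 9.16 (-0.20, SE 0.092, adjusted p = 0.151). Their genes adjoin each other on chromosome 17, and for both the fasted median lay below the fed median with overlapping groups. C4b, whose product is cleaved by the C1 proteases, ranged from 9.40 to 10.15 and from 9.63 to 10.16 (0.12, SE 0.11, adjusted p = 0.538). Masp1, a protease of the lectin pathway, ran from 4.04 over 4.31 to 5.40 in the fed arrays, where fed replicate 3 was far above the other arrays, and from 3.94 over 4.28 to 4.38 in the fasted arrays (-0.22, SE 0.15, adjusted p = 0.392).

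Properdin and the regulators of complement did not move as 1 group. Cfp, which encodes properdin, the stabiliser of the alternative convertase, ran from 8.10 over 8.22 to 8.38 in the fed arrays and from 8.33 over 8.35 to 8.80 in the fasted arrays. The fasted median lay inside the range where the groups overlapped, and the log2 fold change of 0.22 (SE 0.077) missed the threshold (limma adjusted p = 0.0519). Cd59a, which encodes a membrane inhibitor of the terminal pore, ran from 9.93 over 10.34 to 10.62 in the fed arrays and from 9.59 over 9.93 to 10.53 in the fasted arrays. The overlap was wide, since fasted replicate 4 lay within the upper fed values and fed replicates 2 and 3 within the fasted values. The mean fell from 10.32 ± 0.24 to 9.96 ± 0.27 (SD, n = 8 each), a log2 fold change of -0.35 (SE 0.12, limma adjusted p = 0.0472), and the call was lost in 13 of 16 fits that each left out 1 array. Of 9 fibroblast and preadipocyte markers, all measured, 3 fell (Lum, Col3a1 and Cd34) and 0 rose. Their list mean was 9.34 to 9.71 in the fed arrays and 8.96 to 9.66 in the fasted arrays. The median log2 fold change was -0.25 for this list, -0.26 for the smooth muscle and pericyte list and -0.24 for the mesothelial list. Of 7 smooth muscle and pericyte markers, all measured, 1 rose (Acta2) and 2 fell (Rgs5 and Cspg4). The part of these lists in the fall of Cd59a was not tested.

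The other membrane regulators were not called. Cd55, which speeds the decay of convertases, ranged from 7.34 to 7.95 in the fed arrays and from 7.48 to 8.02 in the fasted arrays (log2 fold change 0.14, SE 0.099). Cd46, a cofactor for cleavage of C3b and C4b, ranged from 4.95 to 5.78 and from 5.32 to 6.00 (0.26, SE 0.12, limma adjusted p = 0.183). The change of Cd59a lay below that of Cd55 by -0.50 (SE 0.16), a pair picked after the values were seen. Serping1, which encodes the C1 inhibitor of the C1 proteases and of the contact system, ranged from 10.87 to 11.02 in the fed arrays and from 10.82 to 11.40 in the fasted arrays (0.08, SE 0.075, adjusted p = 0.566). Cfi, the plasma protease that inactivates C3b and C4b, ranged from 2.56 to 7.14 and from 2.61 to 5.92 (-0.31, SE 0.60, adjusted p = 0.814). The sign of that change turned without fed replicate 2, to 0.078.

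The largest changes of the set lay in the anticoagulant pathway, and in opposite directions. Thrombomodulin, the product of Thbd, is an endothelial receptor that turns thrombin towards activation of protein C, and protein S, the product of Pros1, is the cofactor of activated protein C. Pros1 ran from 7.83 over 8.08 to 8.23 in the fed arrays and from 8.67 over 8.91 to 9.23 in the fasted arrays. All 8 fasted arrays lay above all 8 fed arrays. The mean rose from 8.05 ± 0.15 to 8.92 ± 0.23 (SD, n = 8 each), a log2 fold change of 0.87 (SE 0.096, limma adjusted p = 2.35e-06), or 1.83-fold. Thbd ran from 9.07 over 9.40 to 9.51 in the fed arrays and from 8.00 over 8.59 to 8.74 in the fasted arrays. All 8 fasted arrays lay below all 8 fed arrays, with fasted replicate 4 the lowest. The mean fell from 9.34 ± 0.15 to 8.52 ± 0.26 (SD, n = 8 each), a log2 fold change of -0.82 (SE 0.10, limma adjusted p = 1.02e-05), or 1.77-fold lower. These were the called genes of the set whose groups did not overlap, 1 in each direction, beside 3.02% of all genes that were called higher and 3.45% that were called lower without overlap.

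**Figure D3:**
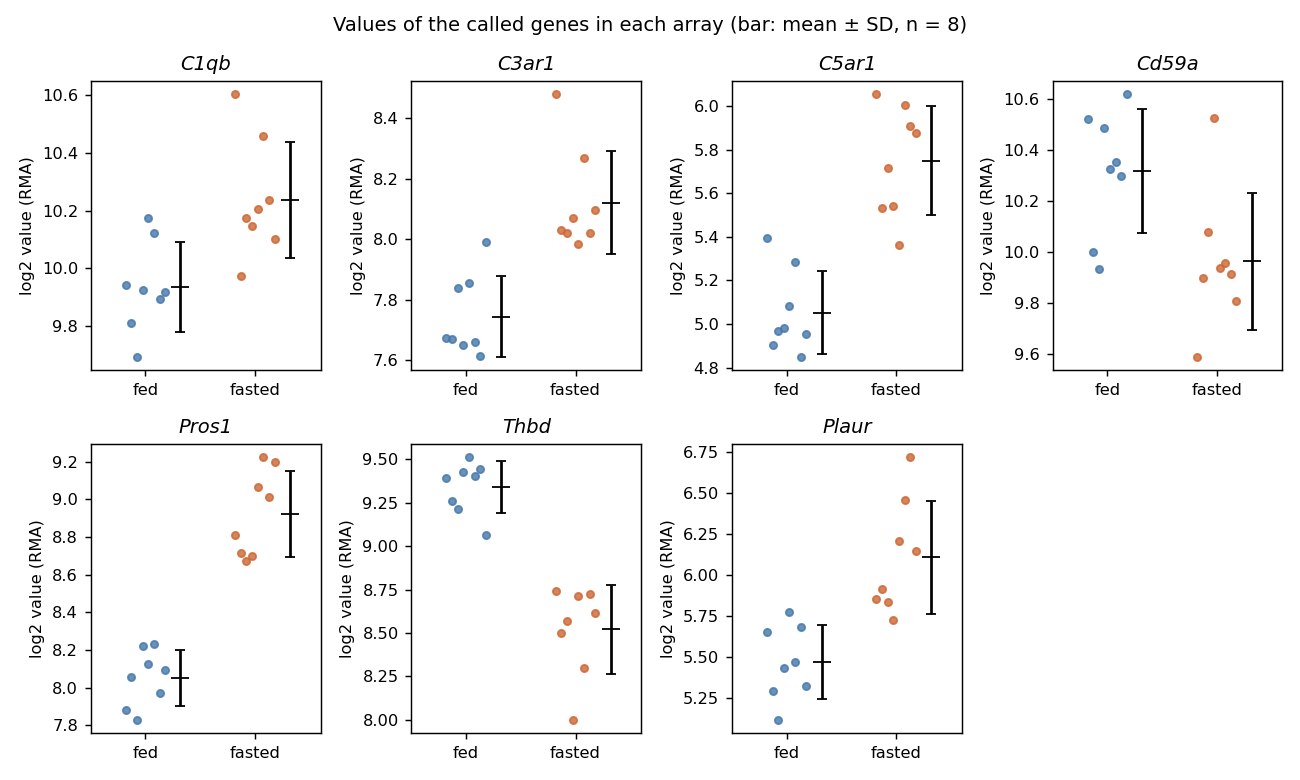
Log2 values of the 7 called genes in each of the 8 fed and 8 fasted arrays as points, with mean and SD as bars. Pros1 and Thbd separate the groups in all arrays, C3ar1, C5ar1 and Plaur touch at their edges, and C1qb and Cd59a overlap.

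Procr and Proc, partners of Thbd and Pros1 in this pathway, were not called, nor were Tfpi and Vwf. Procr, the endothelial protein C receptor, ran from 5.87 over 6.22 to 6.50 in the fed arrays and from 6.15 over 6.46 to 6.57 in the fasted arrays, with overlapping groups (log2 fold change 0.21, SE 0.084, limma adjusted p = 0.0992). The change of Thbd lay below that of Procr by -1.03 (SE 0.12) on the log2 scale, a pair picked after the values were seen. Tfpi, the inhibitor of the tissue factor complex, ran from 6.74 over 7.08 to 7.46 and from 7.01 over 7.22 to 7.47 (0.16, SE 0.10, adjusted p = 0.324). Proc, the protein C zymogen, ranged from 2.83 to 5.15 and from 3.10 to 4.67 (-0.23, SE 0.32). Vwf, the endothelial and platelet protein that tethers platelets, ran from 6.42 over 6.93 to 7.43 and from 6.49 over 6.64 to 7.19 (-0.19, SE 0.14, adjusted p = 0.410). Of 13 endothelial markers, all measured, 5 rose (Pecam1, Tek, Flt1, Eng and Sox17) and 0 fell, with a list mean of 7.97 to 8.48 in the fed arrays and 8.32 to 8.59 in the fasted arrays. The fall of Thbd was opposite in sign to the median of 0.22 of these markers. Of 9 mesothelial markers, all measured, 1 fell (Krt19) and 0 rose, with a median log2 fold change of -0.24. The mean of that list was 6.81 to 7.41 in the fed arrays and 6.17 to 7.63 in the fasted arrays. The part of both lists in the values of Thbd, Pros1, Procr, Tfpi and Vwf was not tested.

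The procoagulant factors of the set were not called either. F3, tissue factor, ran from 7.41 over 7.77 to 8.17 in the fed arrays and from 7.49 over 7.66 to 7.86 in the fasted arrays (log2 fold change -0.14, SE 0.10, limma adjusted p = 0.441). The fasted arrays lay inside the range of the fed arrays. F13a1, the A subunit of the fibrin cross-linking factor and a product of macrophages and platelets, ran from 9.18 over 9.36 to 9.63 and from 9.17 over 9.29 to 9.87 (-0.05, SE 0.098). Its highest value, in fasted replicate 1, stood apart from the other fasted arrays. F7 and F10, vitamin K-dependent proteases, had log2 fold changes of 0.05 (SE 0.14) and -0.11 (SE 0.19), and F5, the cofactor of activated factor X, 0.22 (SE 0.19). F7 ranged from 3.77 to 4.74 and from 3.73 to 4.56, and was 1 of 4 genes of the set, with Cfi, Masp1 and Proc, that did not reach a linear value of 20 in 8 arrays.

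In fibrinolysis, the receptor changed and the enzymes did not pass the test. Plaur encodes the receptor that holds urokinase at the cell surface of leukocytes and other cells. It ran from 5.12 over 5.45 to 5.78 in the fed arrays and from 5.72 over 6.03 to 6.72 in the fasted arrays. The groups met at their edges, where the highest fed array (replicate 5) lay just above the lowest fasted array (replicate 4). The mean rose from 5.47 ± 0.22 to 6.11 ± 0.35 (SD, n = 8 each), a log2 fold change of 0.64 (SE 0.14, limma adjusted p = 0.00195), or 1.56-fold. Plau, urokinase itself, ran from 7.59 over 7.96 to 8.20 and from 7.67 over 8.11 to 8.26 (0.14, SE 0.091, adjusted p = 0.379), and the change of Plaur exceeded its change by 0.51 (SE 0.16), a pair picked after the values were seen. Plat, the tissue plasminogen activator of endothelial cells, ran from 7.54 over 7.66 to 8.05 and from 7.47 over 7.71 to 8.15 (0.08, SE 0.10, adjusted p = 0.696).

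Alb was followed in the same arrays to set genes that vary with it apart from the others. The source of the Alb mRNA in these samples was not tested. Its log2 value ranged from 9.07 to 12.07 in the fed arrays (mean 10.54 ± 1.32, SD, n = 8) and from 9.04 to 11.78 in the fasted arrays (10.58 ± 0.99, n = 8). The groups did not differ beyond this spread (log2 fold change 0.04, SE 0.51, limma adjusted p = 0.977). It was highest in fed replicates 2, 3 and 4 and in fasted replicates 4 and 7. Of 21 measured hepatocyte markers, 1 (Apoc3) was called higher in the fasted arrays, and the list mean ranged from 4.92 to 7.59 in the fed arrays and from 5.06 to 7.04 in the fasted arrays.

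Cfi and Proc followed Alb in both groups. Cfi was 7.14, 5.93 and 5.60 in fed replicates 2, 3 and 4, the arrays with most Alb, and between 2.56 and 4.12 in the other fed arrays. Among the fasted arrays, Cfi peaked in replicates 7 and 4, at 5.92 and 5.40, and lowest in replicate 5, at 2.61, the array with least Alb. Alb itself was higher in fasted replicate 4 (11.78) than in replicate 7 (11.63). Over 8 arrays each, Pearson's r with Alb was 0.888 in the fed (exact permutation p = 0.00392) and 0.908 in the fasted arrays (exact permutation p = 0.00345), with Spearman's rho of 0.833 (exact p = 0.0154) and 0.857 (exact p = 0.0107). For Proc, r was 0.939 (exact p = 1.24e-04) and 0.855 (exact p = 0.00724), and rho was 0.976 (exact p = 3.97e-04) and 0.905 (exact p = 0.00456). When the 2 arrays with the most outlying Alb level of each group were left out, r was 0.930 and 0.853 for Cfi and 0.917 and 0.915 for Proc. The highest Cfi values, in fed replicate 2 and fasted replicate 7, fall in the arrays that stood apart by ciliated epithelium markers, whose list mean was 5.80 and 5.20 there, 3.40 to 4.08 in the other fed and 3.33 to 3.92 in the other fasted arrays. Without those arrays (n = 7 each), r was 0.880 (exact permutation p = 0.00833, rho 0.750, exact p = 0.0663) and 0.926 (exact p = 0.00198, rho 0.821, exact p = 0.0341) for Cfi, and 0.932 (exact p = 9.92e-04) and 0.823 (exact p = 0.00675) for Proc.

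F10, F5 and F7 followed Alb less evenly. F10 peaked in fed replicates 4, 2 and 3, at 5.55, 5.48 and 5.43, and in fasted replicate 4, at 5.67, with r of 0.769 in the fed (exact permutation p = 0.0482, rho 0.714, exact p = 0.0576) and 0.918 in the fasted arrays (exact p = 8.93e-04, rho 0.976, exact p = 3.97e-04). Without the 2 farthest arrays, r for F10 was 0.657 and 0.830, and without fed replicate 2 and fasted replicate 7 it was 0.710 (exact p = 0.0901) and 0.920 (exact p = 3.97e-04). F5 had r of 0.856 in the fed arrays (exact p = 0.00270, rho 0.905, exact p = 0.00456) and 0.525 in the fasted arrays (exact p = 0.180, rho 0.452, exact p = 0.267), and the second turned to -0.36 without the 2 farthest arrays, while the first was 0.805. F7 had r of 0.659 (exact p = 0.0827, rho 0.548, exact p = 0.171) and 0.765 (exact p = 0.0212, rho 0.595, exact p = 0.132). Without the 2 farthest arrays these were 0.701 and 0.141, so the relation of F7 in the fasted arrays rests on those arrays, fasted replicates 3 and 5.

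**Figure D4:**
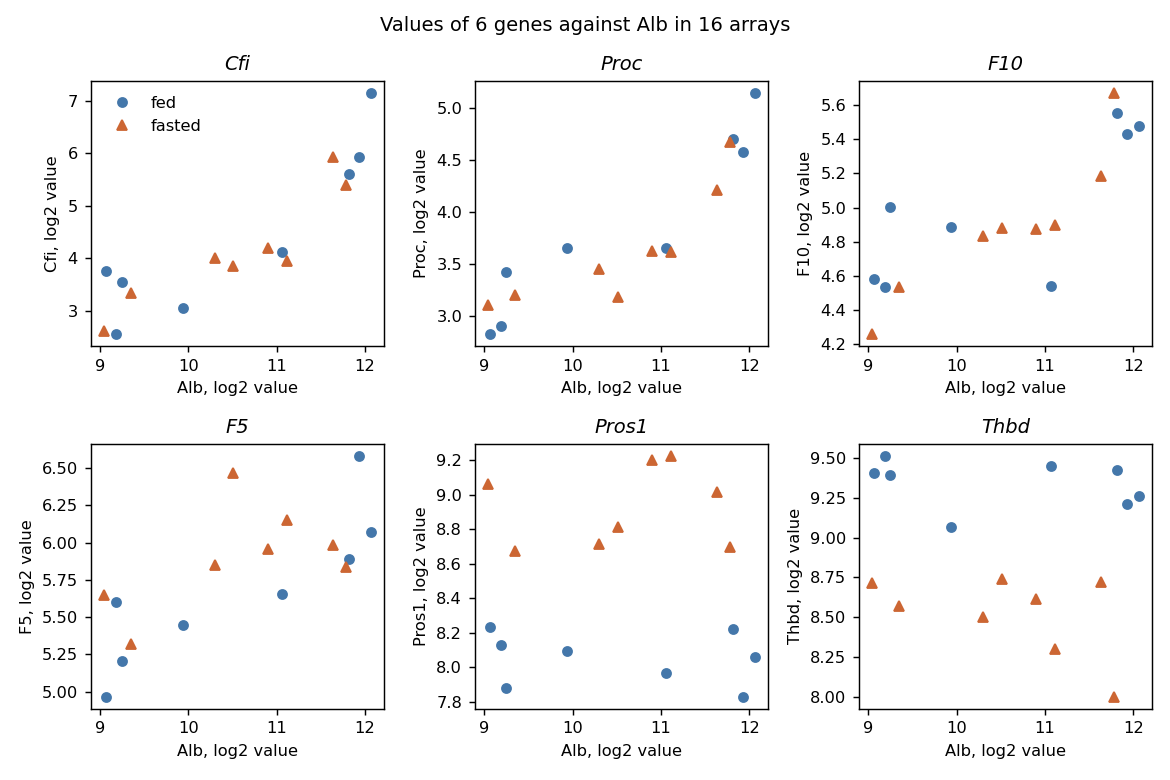
Log2 values of 6 genes against the log2 value of Alb in the 8 fed arrays (circles) and 8 fasted arrays (triangles). Cfi, Proc and F10 climb with Alb in both groups, whereas Pros1 and Thbd keep the fed and fasted arrays apart over the whole range of Alb from 9.04 to 12.07.

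Some genes had a negative r with Alb in 1 of the groups at an unadjusted exact permutation p under 0.05. After Benjamini-Hochberg adjustment over all genes 0 of these passed. The lowest adjusted p among them was 0.497, for C1qb in the fed arrays. Tfpi had r of -0.71 in the fed arrays (exact permutation p = 0.0536, rho -0.88, exact p = 0.00724) and -0.76 in the fasted arrays (exact p = 0.0303, rho -0.69, exact p = 0.0694), or -0.56 and -0.39 without the 2 farthest arrays. C1qb had r of -0.81 in the fed arrays (exact p = 0.00556, rho -0.88, exact p = 0.00724), and 0.098 in the fasted arrays (exact p = 0.826). C1qa had -0.76 in the fed arrays (exact p = 0.0280, rho -0.90, exact p = 0.00456) and 0.265 in the fasted arrays (exact p = 0.545). For C5ar1 these were -0.74 (exact p = 0.0344, rho -0.67, exact p = 0.0831) and 0.441 (exact p = 0.270). F3 had 0.295 in the fed (exact p = 0.469) and -0.73 in the fasted arrays (exact p = 0.0411, rho -0.64, exact p = 0.0962). Without the 2 farthest arrays, r in the fed arrays was -0.73 for C1qb, -0.65 for C1qa and -0.63 for C5ar1, and r of F3 in the fasted arrays was -0.37, so that relation and those of Tfpi weakened without them. Whether these coefficients differ between the groups was not tested.

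Over the set, 62 correlations with Alb were computed, 31 in each group. After Benjamini-Hochberg adjustment of the exact permutation p over all 22179 other genes, 0 of the set and 0% of all genes passed in the fed arrays, and likewise 0 and 0% in the fasted arrays. The lowest adjusted p of the set was 0.148, for Proc in the fed arrays. At an unadjusted exact p under 0.05, 4 genes of the set were positive and 3 negative in the fed arrays, beside 2.93% and 2.62% of all genes, and 4 positive and 2 negative in the fasted arrays, beside 2.69% and 2.12% of all genes. Those positive in both groups were Cfi, Proc and F10. Without fed replicate 2 and fasted replicate 7, only Cfi, Proc, F10, F5 and F7 were recomputed. Of these, Cfi and Proc were positive in both groups at that threshold. A limma slope on Alb over all 16 arrays, with group as a term, was chosen after seeing the data. It takes 1 slope for both groups and was not refitted without fed replicate 2 and fasted replicate 7. The slope called 0.789% of all genes positive and 0.00451% negative after adjustment over all genes. In the set it called 4 positive and 0 negative. Per unit of log2 Alb, Cfi rose by 1.03 (SE 0.13, limma adjusted p = 5.50e-05), Proc by 0.56 (SE 0.065, adjusted p = 3.15e-05), F10 by 0.30 (SE 0.054, adjusted p = 0.00474) and F5 by 0.27 (SE 0.063, adjusted p = 0.0479). F7 and Tfpi, with slopes of 0.18 and -0.13, were not called (adjusted p = 0.184 and 0.214).

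**Figure D5:**
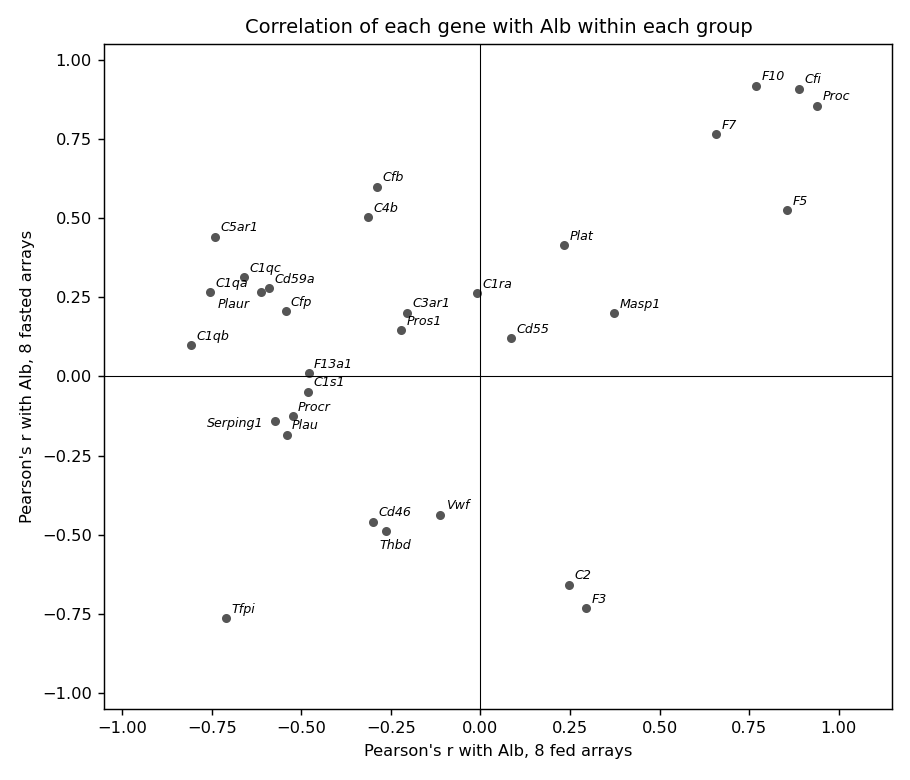
Pearson's r of each of the 31 genes with Alb in the 8 fed arrays (horizontal axis) and the 8 fasted arrays (vertical axis). Cfi, Proc and F10 lie in the upper right corner with F7 and F5, Tfpi lies in the lower left, and Pros1 at -0.22 and 0.145 lies near the centre.

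With Alb as a covariate in the fasting comparison, the standard error shrank from 0.60 to 0.28 for Cfi, from 0.32 to 0.14 for Proc, from 0.19 to 0.12 for F10 and from 0.19 to 0.14 for F5, and none of the 4 was called. The log2 fold changes were 0.87 for Pros1, -0.82 for Thbd and 0.70 for C5ar1, the same to 2 decimals as without the covariate. Cd59a missed the threshold in that fit (-0.35, limma adjusted p = 0.0515), and the other 6 called genes were called in it.

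Other genes of both cascades give the setting of these results. Of 31 other complement genes 30 were measured, of which 3 rose, 3 fell and 24 were not called, with a median log2 fold change of -0.22. These are 10% in each direction, beside 8.49% of all genes called higher and 10.7% called lower. Fcna, a ficolin of the lectin pathway, rose by 1.00 (SE 0.15, limma adjusted p = 8.27e-05) and Vsig4, a macrophage receptor for C3b, by 0.89 (SE 0.16, adjusted p = 3.95e-04), while Cd93 rose by 0.42 (SE 0.12). Itgax, a subunit of complement receptor CR4, fell by 0.72 on the log2 scale (SE 0.17), C1rl by 0.68 (SE 0.11) and Cd59b, the paralog of Cd59a, by 0.54 (SE 0.18, adjusted p = 0.0389). The components of the membrane pore Hc (which encodes C5), C8a, C8b, C8g and C9 were called positive for the slope on Alb, as were C4bp, Vtn and Cpn1. These were 8 of the 30 in all, beside 0.789% of all genes. The pore genes C6 and C7 were not, with slopes of -0.03 (SE 0.072) and 0.13 (SE 0.15) per unit of log2 Alb and r of -0.018 and 0.249 in the fed and -0.21 and 0.141 in the fasted arrays.

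Of 38 other coagulation and fibrinolysis genes 34 were measured, of which 1 rose, 6 fell and 27 were not called, with a median log2 fold change of -0.22. These are 2.94% higher and 17.6% lower, beside the same 8.49% and 10.7% of all genes. Thbs1, the platelet and matrix protein thrombospondin, rose by 1.03 (SE 0.19, limma adjusted p = 6.92e-04). Of 5 measured platelet and megakaryocyte markers, 1 rose, Ppbp by 1.03 (SE 0.18, adjusted p = 3.26e-04), and 0 fell; their mean ran from 4.07 to 4.41 in the fed arrays and from 4.30 to 4.90 in the fasted arrays, and their part in the values of Thbs1, Vwf and F13a1 was not tested. Anxa2, a cell surface receptor of plasminogen and its activator, fell by 0.69 on the log2 scale (SE 0.094, adjusted p = 2.52e-05) and F8, clotting factor VIII, by 0.52 (SE 0.10). Ggcx and Vkorc1, enzymes of the vitamin K cycle, fell by 0.44 (SE 0.080) and 0.34 (SE 0.077) on the log2 scale. Modification of the Pros1, Proc, F7 and F10 proteins depends on this cycle. Gas6, a relative of protein S, fell by 0.36 (SE 0.10) and Lman1, a cargo receptor of factors V and VIII, by 0.22 (SE 0.055) on the same scale. Cd93 and these last 4 were named after their values were seen. Of the 34, 13 were called positive for the slope on Alb, beside 0.789% of all genes. F2, F9, F12, Fga, Fgb, Fgg, Serpinc1 and Plg were among them. Fgb had the highest r with Alb of the 34 in the fed arrays, 0.984, and 0.975 in the fasted arrays. Neither passed adjustment over all genes (exact permutation adjusted p = 0.148 and 0.172).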

How the data were processed

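RNA of 16 gonadal fat samples was labelled from 100 ng each and hybridised to whole-transcript arrays, per the labels' protocols. The authors deposited log2 values; RMA (background correction, normalization between arrays and summary by probe set) is named in the submitters' processing notes. Its version is not given in the sources used here. Of 41345 probe sets, 23521 had 1 gene symbol and gave 22180 genes. RMA gives arrays a shared distribution, so changes are relative to other transcripts.

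The groups were fitted in R 4.3.3 with limma 3.58.1 (group as the only term, eBayes) and adjusted over all genes. Correlations with Alb used exact permutation of all 40320 pairings, two-sided. They were adjusted over all genes, in place of the planned adjustment over the set, because the genes and lists were chosen with earlier results of these data known. All genes of the set are named. For the fasting comparison, other complement and coagulation genes are named where called with an absolute log2 fold change of at least 0.5, apart from 5 noted in the text. Further genes of these lists are named for their slope on Alb or their r with it, and were picked after the values were seen. Scripts were tested on simulated data. Alternatives were a filter on dim genes, other normalizations, variance settings, a replicate block, other probe sets, a rank sum test, liver covariates and arrays left out. Promoters and coordinates are from RefSeq. Figures used matplotlib 3.10.9 in Python 3.11.15.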

Additional observations from a re-analysis of the deposited data

Results flagged for a closer look

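In 88 groups of 8 arrays, 8 values stood far from the others of their group, where chance flags about 1 in 20 groups. Masp1 was 5.40 in fed replicate 3, against 4.04 to 4.49 in the other fed arrays. F13a1 was 9.87 in fasted replicate 1, against 9.17 to 9.32 in the other fasted arrays. Vwf was 7.19 in fasted replicate 3, against 6.49 to 6.73 in the other fasted arrays. The mean of the fibroblast and preadipocyte markers was 9.71 in fed replicate 6, against 9.34 to 9.52 in the other fed arrays. The mean of the ciliated epithelium markers was 5.80 in fed replicate 2, against 3.40 to 4.08, and 5.20 in fasted replicate 7, against 3.33 to 3.92. The mean of the epididymis markers was 3.00 in fed replicate 2, against 2.46 to 2.62, and 2.86 in fasted replicate 7, against 2.37 to 2.59.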

How the results depend on the processing

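The 8 arrays per group limit the precision. The count of genes called over all genes ranged from 3817 to 4756 across the alternatives, against 4251. C3ar1, C5ar1, Pros1, Plaur and Thbd were called in every alternative and with each array left out. With 1 array left out, 4 to 7 genes of the set were called higher and 1 to 3 lower. The count called lower was 1, without Cd59a, after array medians were subtracted, with quantile normalization repeated, with the exact rank sum test, with Alb as a covariate and with the replicate block. Cd59a kept its call without fed replicate 2, fed replicate 3 or fasted replicate 4, and its limma adjusted p with 1 array left out ranged from 0.00576 to 0.0949. Cfp was called under 7 alternatives, Procr under 4 and Cfb under 3. The cause of these changes was not tested. Under the replicate block 3829 genes were called, 5 of the set higher and 1 lower. Deviations of same-numbered arrays correlated between -0.22 and 0.22, and 2 of 8 fed arrays correlated best with their own number. Pairs that share little variation would not show in these values, so they do not settle whether the numbers pair the samples. Some genes that were not called changed sign, among them Cfi and Proc, at -0.31 (SE 0.60) and -0.23 (SE 0.32) with all arrays. C1qa was 0.016 and C1ra 0.020 after array medians were subtracted, and C1ra 0.041 with quantile normalization repeated. C1s1 was -0.064 with array weights, -0.058 with its other probe set and -0.078 without fed replicates 2 and 3 and fasted replicate 7, where Cfi was 0.13, F10 0.00071 and Proc 0.023. With 1 array left out, C1qa ranged from -0.081 to 0.0079, C1ra from -0.083 to 0.038, C1s1 from -0.076 to 0.11, Cfi from -0.58 to 0.078 and F7 from -0.0081 to 0.13. Adjusted over the 62 correlations of the set, as the design had it, 3 correlations with Alb passed in the fed and 2 in the fasted arrays; the slope on Alb and the correlations without the arrays high in ciliated epithelium markers were chosen after seeing the data. With no correlation called, there was no r at which to count without the 2 farthest arrays.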
